A study of Mus musculus with 2 samples.

Results

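The cells described here are neutrophils that carried the transcripts of granule proteins in bulk, a feature of neutrophil stages before full maturity. They were found in a single-cell RNA-seq library of the thymus of adult C57BL/6 mice, made in 2021 from cells sorted for surface CD64, the high-affinity IgG receptor encoded by Fcgr1. The labels call the material macrophages and give no treatment, mutation, sex or exact age, and they do not say how many animals were used or whether cells were pooled. A second library of the same description, from 2024, is not analysed here beyond its depth, because no gene or barcode list was used for it. Barcodes shared between the libraries were therefore not counted. Members were chosen by their measured granule transcripts: a cell was a member when Camp, Ngp and Ltf together made up at least 1% of its UMIs (unique molecular identifiers, each 1 counted transcript molecule). Of the 3188 cells kept from the 2021 library, 328 met this rule (10.3%, 95% exact binomial interval 9.26 to 11.4%). Both libraries together held 6029 barcodes.

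The members were compared with 173 mature neutrophils of the same library, in which S100a8 and S100a9 made up at least 2% of UMIs and the 3 granule genes less than 1%, and with all 2860 other kept cells. The 5 genes used by these rules (Camp, Ngp, Ltf, S100a8 and S100a9) were left out of the comparisons. Because 1 library is 1 sample, no test between samples was possible, and values are given without p-values. Each interval is exact, at the 95% level, and covers counting error only.

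Neutrophils make their granules in waves while they develop in the bone marrow. Primary (azurophil) granules, with myeloperoxidase and serine proteases such as elastase, are filled first, in cells that still divide. Specific granules, with lactoferrin (Ltf), cathelicidin (Camp), neutrophilic granule protein (Ngp) and lipocalin 2 (Lcn2), come next, at the myelocyte and metamyelocyte stages. Gelatinase granules, with matrix metalloproteinase 9 (Mmp9), come late, and circulating cells then keep the proteins while most of the granule transcripts are gone. The transcription factor C/EBP epsilon, encoded by Cebpe, is known to be needed for the specific granule genes.

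The 2021 library held 3214 barcodes and 8534578 UMIs, with a median of 2157.5 UMIs per barcode, and the 2024 library 2815 barcodes and 24569270 UMIs, with a median of 5312. The members held 1062318 UMIs, of which 576319 remained without the 5 gating genes, and the mature neutrophils 281078 and 213799. The median was 2430.5 UMIs per member (564 to 13077), 1190 per mature neutrophil (516 to 18653) and 2237 per cell outside both neutrophil groups. A median member had 684 detected genes and a median mature neutrophil 433.

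Camp, Ngp and Ltf chose the cells, so their levels are a description. Their summed share of a member's UMIs had a median of 6.46% and ran from 1.05 to 15.7%. Camp had a median share of 2.69% and was found in 327 of 328 members, Ngp 2.40% in 327, and Ltf 0.865% in 317. S100a8 and S100a9, the subunits of calprotectin, made up 38.2% of a median member's UMIs (5.28 to 57.8%), although the rule for members did not use them. The 3 cells just inside the limit had 1.05, 1.06 and 1.19%, and the 3 just outside 0.963, 0.959 and 0.940%. Between 1 and 2% there were 24 cells, and between 0.5 and 1% 25 cells, with median S100a8 and S100a9 shares of 33.8 and 35.7%. The limit thus cuts through a continuous range and not between separate groups of cells, while cells outside the neutrophil groups did not exceed 0.388%. Free RNA in the suspension can give a cell a UMI of a gene it does not express: a Camp UMI was found in 9.06% of 276 C1q-expressing cells and 9.31% of 247 T lineage cells.

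The other 3 marker genes given for these cells were not used by the rule, and all were present. Lcn2 was found in 328 of 328 members, with a median share of 1.52% of UMIs (0.0461 to 4.62%). Cd177, a surface protein stored in specific granules, was found in 295 members (89.9%), and Ly6g, the surface antigen by which mouse neutrophils are commonly sorted, in 242 (73.8%). In the mature neutrophils the same shares of cells were 63.6% for Lcn2, 25.4% for Cd177 and 18.5% for Ly6g. The markers of immature neutrophils were thus found, and the macrophage label of the sample did not describe these cells: the macrophage complement genes C1qa, C1qb and C1qc together stood at 222 CPM in members and 281 in mature neutrophils against 1252 in the cells outside both neutrophil groups. CPM stands for counts per 1000000, a gene's UMIs scaled to the UMI total of the cell group, here always without the 5 gating genes unless all UMIs are named.

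**Figure D1:**
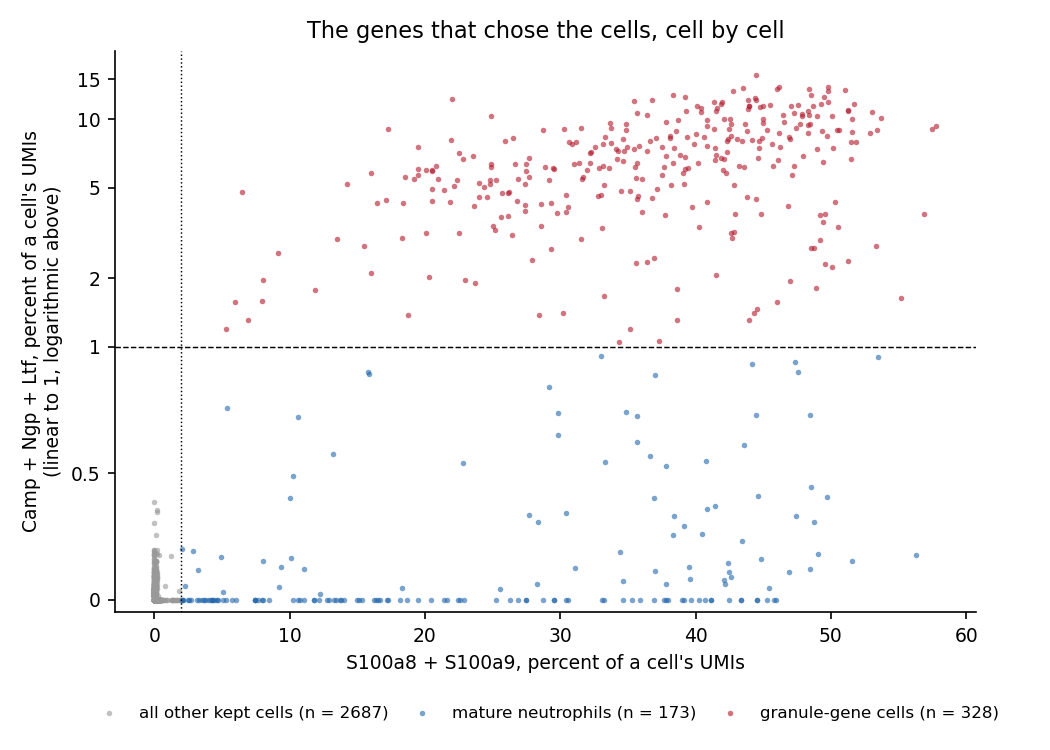
Each point is 1 of the 3188 kept cells, with the S100a8 and S100a9 share of its UMIs on the x axis and the Camp, Ngp and Ltf share on the y axis (linear up to 1%, logarithmic above). The dashed line is the 1% limit that chose the 328 granule-gene cells and the dotted line the 2% limit of the mature neutrophils; members extend from 1.05 to 15.7% with no gap at the limit.

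The 5 genes below carry the granule signal that the results turn on, and the 250 bases before their transcription starts are shown so that the letters shared between them can be seen. All 3 genes of the rule lie on mouse chromosome 9 within 1.195 Mb, with 28 other protein-coding genes between them. In the RefSeq annotation of GRCm38.p6, the genome assembly that mm10 stands for, Camp spans positions 109847377 to 109849456, Ngp 110419808 to 110423012 and Ltf 111019292 to 111042766. Lcn2 lies on chromosome 2 (32384637 to 32387739) and Chil3, a chitinase-like protein gene, on chromosome 3 (106147554 to 106167564). The sequences are RefSeq's, 5′ to 3′ on the strand of the gene. Capitals mark matches to TTGCNNAA, a motif bound by C/EBP factors, on either strand. The windows are chr9:109849457-109849706 (minus strand) for Camp, chr9:110419558-110419807 (plus) for Ngp, chr9:111019042-111019291 (plus) for Ltf, chr2:32387740-32387989 (minus) for Lcn2 and chr3:106167565-106167814 (minus) for Chil3.
Camp: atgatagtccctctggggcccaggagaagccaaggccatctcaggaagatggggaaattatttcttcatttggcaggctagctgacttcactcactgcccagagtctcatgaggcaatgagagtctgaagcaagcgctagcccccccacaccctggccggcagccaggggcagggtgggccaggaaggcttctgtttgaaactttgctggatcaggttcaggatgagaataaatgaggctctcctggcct
Ngp: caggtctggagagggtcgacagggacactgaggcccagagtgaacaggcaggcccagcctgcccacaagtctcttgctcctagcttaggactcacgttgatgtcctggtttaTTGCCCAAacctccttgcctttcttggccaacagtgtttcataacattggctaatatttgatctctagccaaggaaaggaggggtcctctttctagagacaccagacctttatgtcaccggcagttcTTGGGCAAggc
Ltf: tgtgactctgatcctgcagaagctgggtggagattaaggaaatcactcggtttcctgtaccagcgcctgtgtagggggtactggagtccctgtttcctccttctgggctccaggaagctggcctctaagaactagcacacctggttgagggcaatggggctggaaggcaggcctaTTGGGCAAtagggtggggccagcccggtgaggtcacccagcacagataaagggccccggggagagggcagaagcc
Lcn2: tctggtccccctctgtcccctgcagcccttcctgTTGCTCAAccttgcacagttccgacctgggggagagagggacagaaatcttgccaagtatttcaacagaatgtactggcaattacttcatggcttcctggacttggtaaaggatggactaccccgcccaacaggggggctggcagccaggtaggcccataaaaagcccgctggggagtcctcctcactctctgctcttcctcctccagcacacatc
Chil3: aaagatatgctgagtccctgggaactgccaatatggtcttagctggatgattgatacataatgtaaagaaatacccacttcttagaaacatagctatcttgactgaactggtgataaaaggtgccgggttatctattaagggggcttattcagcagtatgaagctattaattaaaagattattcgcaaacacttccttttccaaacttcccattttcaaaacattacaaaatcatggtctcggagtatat

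The Ngp window held 2 matches, which start 138 and 11 bases before the transcription start. Ltf had 1 match, starting 75 bases before it, and Lcn2 had 1, starting 216 bases before it. The Camp and Chil3 windows held none, which says only that these letters are not in those 250 bases. Among the 12 genes of the specific granule list (with Camp, Ngp and Ltf) that had a window, 5 held the C/EBP motif (41.7%), against 9.56% of all 32851 windows and 10.8% of the 27025 genes with a window. The motif GAGGAA of PU.1, the myeloid factor encoded by Spi1, was found on either strand in 6 of the 12 (50%), against 23.3% of all windows and 25.9% of genes. Of the 20 genes of the inflammatory list that had a window, 1 held the C/EBP motif (5%) and 9 the PU.1 motif (45%). A match is a description of letters and not a site of binding. RefSeq's table had no window for Cebpe, Wfdc21, Orm1 and Mmp9.

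Members put most of their transcripts into few genes. S100a8 alone took 20.8% of their UMIs and S100a9 17.4%, followed by Camp (3.76%), Ngp (3.06%), the actin-binding Tmsb4x (1.77%), Actb (1.71%), Lcn2 (1.45%), the lysozyme gene Lyz2 (0.836%), Ltf (0.756%) and Wfdc21 (0.637%). The 10 most abundant genes of each group took 52.2% of UMIs in members, 33.9% in mature neutrophils and 12.9% in the cells outside both. At an equal depth of 1000 UMIs a cell, members showed a median of 353.5 genes, mature neutrophils 359 and the others 539. The median share of mitochondrial UMIs was 0.309% in members, 0.106% in mature neutrophils and 0.890% in the cells outside both.

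Markers of other cell types were measured in the same cells. UMIs of basophil and mast cell markers (Mcpt8, Cpa3, Fcer1a and Ms4a2) were at 0 in all 328 members, with an exact upper limit of 6.40 CPM. The T lineage list stood at 45.1 CPM with Rag1 at 0 (136 in mature neutrophils, 493 in the cells outside both groups), the B lineage list at 118 (210.5 and 715) and the natural killer list at 194 with Ncr1 and Klrb1c at 0 (313 and 1030). The monocyte list stood at 2221 CPM (2231 and 1677), of which Ly6c2, also a gene of young neutrophils, made up 1961. Eosinophil markers had 3 UMIs, with Epx, Prg2 and Ccr3 at 0. The dendritic cell list, which includes the widely spread MHC class II genes Cd74 and H2-Aa, stood at 2290 CPM with Xcr1 at 0 (4303 and 18987), and 22 members had 3 or more of its UMIs. The plasmacytoid dendritic cell list stood at 578 CPM in members, above the 267 of mature neutrophils and below the 675.5 of the cells outside both groups, and 36 members had 3 or more of its UMIs. Bst2, which interferon also induces in many cells, gave 330 of its 333 UMIs, with Siglech at 2 and Ccr9 at 1. At least 3 UMIs of the C1q, Cd3, Cd79, Jchain and natural killer genes were seen in 7 members (2.13%) and in 11 mature neutrophils (6.36%). Of the cells, 1 in the mature group held all 79 of its Jchain UMIs and 4202 of its 4218 Igkc UMIs. Its part in other genes was not tested on its own. A setting without these 7 members and 11 mature neutrophils removed that cell as well. It gave 540 genes higher in members than in mature neutrophils and 371 lower, by the limits given below. The doublet caller marked 3 of 3188 cells, too few to be taken as a working call, and 21 members (6.40%) were among the 6% of cells with the highest doublet scores.

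Against mature neutrophils, the members were higher in specific granule genes, the oxidase genes Cybb, Ncf1 and Rac2, Cebpe and genes of mitosis, and lower in cytokine and chemokine genes, stefin A genes and several receptors. A gene was compared with at least 15 UMIs over both sides and at least 50 CPM in the higher one, and is called higher or lower here at a log2 ratio of 1 or more in size. Of 3286 genes compared, 550 were higher in members (16.7%) and 363 lower (11%), with a median log2 ratio of 0.15. If the gating genes are kept in the totals, every log2 ratio is lower by 0.49, and 137 genes were then higher and 543 lower. Ratios between 0 and 0.49 therefore change sign with that scaling, and median-of-ratios scaling lowers all of them by 0.15.

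Of 10 specific granule genes compared, 6 were higher in members and 1 lower, with a median log2 ratio of 1.69 (0.15 over all genes compared). Lcn2, which starves bacteria by binding their siderophores, stood at 26707 CPM in members (26287 to 27133) and 4004 in mature neutrophils (3740 to 4281), a log2 ratio of 2.74 (2.64 to 2.84). Chil3 stood at 7447 CPM against 631, a log2 ratio of 3.56 (3.31 to 3.82), with UMIs in 297 of 328 members and 20 of 173 mature neutrophils. It has close relatives in the genome, among which reads can be split. Cd177 stood at 2082 CPM against 351, a log2 ratio of 2.57 (2.23 to 2.93). Pglyrp1, a peptidoglycan-binding antibacterial protein, stood at 5667 against 2409 CPM, a log2 ratio of 1.23 (1.10 to 1.37). Abca13, an ABC transporter, had 44 UMIs in 37 members and 1 UMI in the mature group (log2 ratio 4.03, 1.48 to 9.37). Olfm4, which marks a subset of neutrophils, had 36 UMIs in only 4 members and 0 in mature neutrophils.

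The remaining specific granule genes did not follow. Hp, encoding haptoglobin, had a log2 ratio of 0.91 (2414 against 1282 CPM) and Chil1 0.66. Mmp8, the neutrophil collagenase, stood at 1591 CPM in members and 1749 in mature neutrophils, with a log2 ratio of -0.14 (-0.31 to 0.04) whose interval includes 0. Slpi, an inhibitor of neutrophil serine proteases, was lower in members, at 769 against 3232 CPM (log2 ratio -2.07, -2.25 to -1.90). With the gating genes kept in the totals, 3 of 8 genes were higher and 1 lower, and the median was 0.59.

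**Figure D2:**
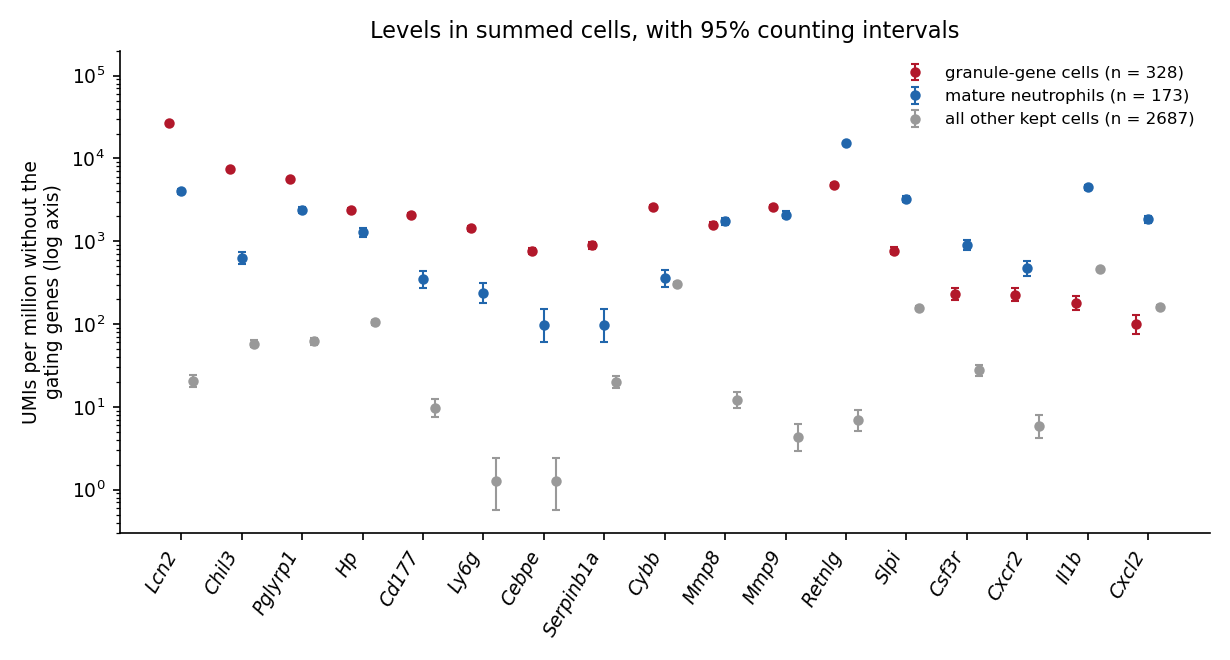
Summed CPM (log axis, gating genes left out) of 17 genes in the 328 granule-gene cells, 173 mature neutrophils and 2687 other kept cells; bars are 95% counting intervals. Lcn2 stands at 26707 in granule-gene cells and 4004 in mature neutrophils, and Il1b at 181 and 4481.

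Primary granule genes were divided. Of 9 compared, 2 were higher and 3 lower, with a median log2 ratio of -0.18. Serpinb1a, an intracellular inhibitor of elastase and its relatives, was higher at 892 against 98.2 CPM (log2 ratio 3.18, 2.56 to 3.89), as was Cd63, a tetraspanin of granule membranes, at 557 against 276 (1.01, 0.61 to 1.44). Mpo (myeloperoxidase, -1.41), Ctsg (cathepsin G, -1.30) and Ctsc, the protease that activates cathepsin G (-1.29), were lower. Elane (neutrophil elastase) stood at 1156 against 1305 CPM and Prtn3 (proteinase 3) at 1209 against 1534. These levels came from few cells, since 3 cells of the mature group held 813 of its 823 UMIs of Mpo, Elane, Prtn3, Ctsg and Ms4a3. Without cells that had 5 or more such UMIs, 3 genes of the list could be compared, with a median of 1.33.

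Gelatinase granule genes showed no common direction: 1 of 7 was higher and 2 lower, and their median of 0.30 became -0.19 with the gating genes kept in the totals. Mmp9 stood at 2584 CPM in members and 2100 in mature neutrophils (log2 ratio 0.30, 0.15 to 0.45; -0.19 with those genes kept). Itgam, the CD11b integrin chain, was higher at 656 against 318 CPM (1.04, 0.67 to 1.44). Retnlg, a resistin-like secreted protein, was lower at 4803 against 15356 CPM (-1.68, -1.75 to -1.60), and so was the metal transporter gene Slc11a1 (-2.02). All 4 stefin A genes compared, of 7 in the table, were lower in members. These inhibitors of cysteine proteases form a cluster of near-identical copies, so that the split of reads between them is uncertain. Cstdc4 had the lowest log2 ratio, -5.23 (-6.13 to -4.45), at 24.3 against 912 CPM, and Stfa2l1 followed at -3.58.

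Genes of the oxidase that makes superoxide in phagosomes are given singly. Cybb, its membrane-bound catalytic subunit, stood at 2584 CPM against 355.5, a log2 ratio of 2.86 (2.53 to 3.21). The cytosolic organiser Ncf1 stood at 1194 against 351 (1.77, 1.42 to 2.13) and the GTPase Rac2 at 3172 against 1464 (1.12, 0.94 to 1.29). Cyba, the partner of Cybb in the membrane, had a log2 ratio of 0.52 and Ncf4 one of 0.76. Of these 5 genes, Cybb, Ncf1 and Rac2 were thus past a log2 ratio of 1.

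Of 20 surface receptor genes compared, 2 were higher and 8 lower in members, with a median log2 ratio of -0.60. The 2 higher ones were Ly6g, at 1440 against 239 CPM (2.59, 2.19 to 3.03), and Ltb4r1, the receptor for the chemoattractant leukotriene B4, at 724 against 159 (2.19, 1.68 to 2.74). Csf3r, the receptor for granulocyte colony-stimulating factor, was lower at 231 against 898 CPM (-1.96, -2.29 to -1.63). Cxcr2, the chemokine receptor that draws neutrophils into blood, was lower at 227 against 472 (-1.06, -1.44 to -0.67). Also lower were the C-type lectin receptors Clec4d (-2.96) and Clec4e (-2.14), the formyl peptide receptor Fpr1 (-2.001), Ptafr (-2.02), Selplg (-1.38) and the endotoxin co-receptor Cd14 (-1.14). Fpr2, a second formyl peptide receptor, had a log2 ratio of 0.83 (0.49 to 1.19). Among 54 mature neutrophils and 262 members that passed a stricter cell filter (1000 UMIs, 500 genes), 3 receptors were higher and 4 lower and the median was 0.02. Over all genes compared in that setting, 645 were higher and 357 lower.

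Of 8 genes that hold neutrophils in the marrow or release them, 0 were higher and 4 lower in members (median -0.95). They were Cxcr2, the integrin chains Itga4 (-2.08) and Itgb1 (-1.32), and the chemokine receptor Ccr1 (-1.90). Cxcr4, the receptor that retains neutrophils in the marrow, stood at 401 CPM in members (351 to 456) and 720 in mature neutrophils (611 to 844), a log2 ratio of -0.85.

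Transcription factor genes mostly differed little, with 2 of 16 compared (of 20 listed) higher, 2 lower and a median of -0.25. Cebpe (chromosome 14, 54710363 to 54712174) stood at 762 CPM in members (692 to 836) and 98.2 in mature neutrophils (60.8 to 150), a log2 ratio of 2.96 (2.33 to 3.66), with UMIs in 181 of 328 members and 10 of 173 mature neutrophils. Klf5 was also higher (102 against 42.1 CPM, 1.28). Lower were Junb, an AP-1 subunit (-1.93), and Klf2 (-1.23). Cebpb, the C/EBP factor of emergency granulopoiesis, stood at 779 against 1511 CPM (-0.96, -1.17 to -0.74), and Spi1 at 869 against 907 (-0.06, -0.30 to 0.18).

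Inflammatory genes formed the list with the most genes lower in members, 14 of 19 compared (of 24 listed), with 1 higher and a median log2 ratio of -2.004. Il1b stood at 181 CPM in members (147 to 219) and 4481 in mature neutrophils (4202 to 4774), a log2 ratio of -4.63 (-4.94 to -4.34). It was found in 30 of 328 members and in 119 of 173 mature neutrophils. The neutrophil-attracting chemokine Cxcl2 stood at 98.9 against 1852 CPM (-4.23, -4.65 to -3.82), Ccl3 at 19.1 against 659.5 (-5.11) and Ccl4 at 27.8 against 608 (-4.45). Acod1, which makes itaconate, had 0 UMIs in members and 34 in mature neutrophils, at least 30.55-fold lower on a floor of 3 counts over the group. The inflammasome sensor Nlrp3 (-3.43) and Ptgs2, the inducible cyclooxygenase (-3.85), were lower as well. The gene that was higher was Thbs1, encoding thrombospondin 1, at 435.5 against 122 CPM (1.84, 1.26 to 2.48). In the stricter cell filter 6 of 14 genes were lower and 1 higher with a median of -0.84, Ccl4 had a log2 ratio of -0.02, and Il1b one of -3.12.

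**Figure D3:**
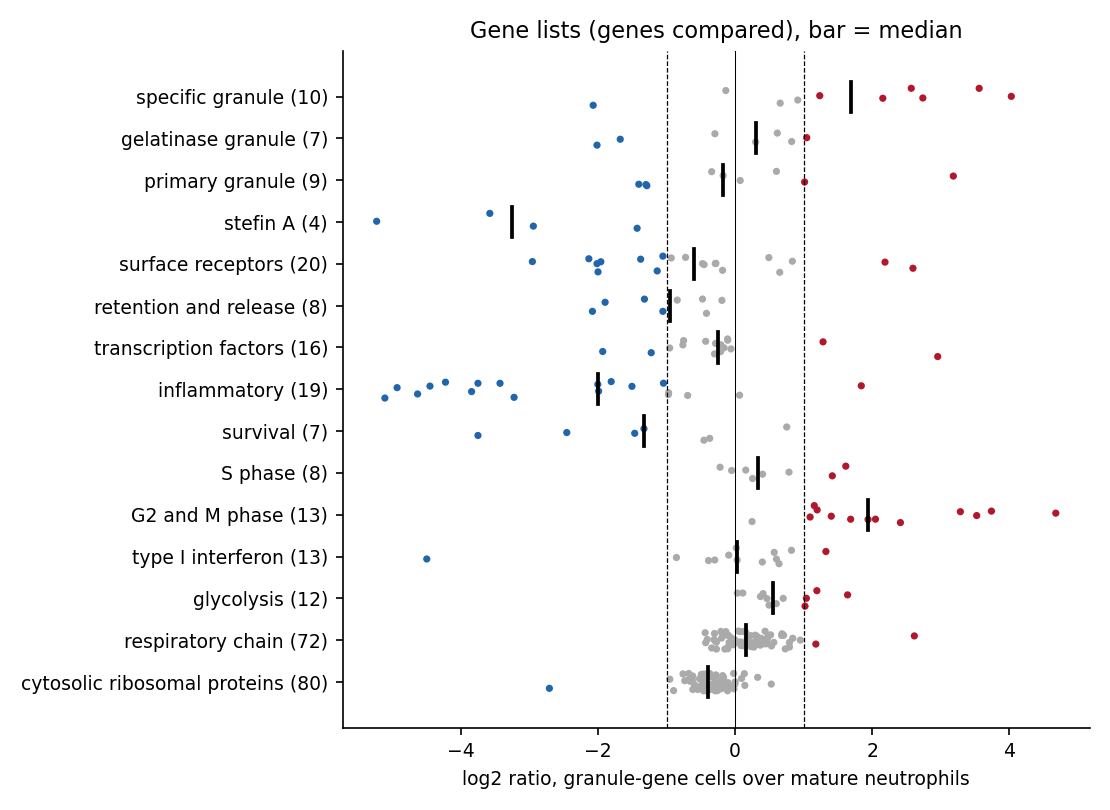
Log2 ratio of granule-gene cells over mature neutrophils for each compared gene of 15 gene lists, with the number of genes in brackets; thick bars are list medians, dashed lines the ratios of 1 and -1 used for calls, and coloured points genes past them. The G2 and M phase (1.94) and specific granule (1.69) lists have the highest medians and the stefin A (-3.26) and inflammatory (-2.004) lists the lowest.

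Interferon response genes had no common direction (1 of 13 higher, 1 lower, median 0.03, which turns to -0.13 with median-of-ratios scaling and to -0.46 with the gating genes kept). Usp18 was higher (1.32) and Ifitm1 lower, at 48.6 against 1099 CPM (-4.50, -5.12 to -3.93), while its neighbour in name Ifitm3 stood at 8287 against 5318 (0.64). Among regulators of cell death 0 of 7 were higher and 4 lower (median -1.33): Mcl1, a survival factor of neutrophils (494.5 against 1366 CPM, -1.47), Bid (-1.33), and Bcl2a1a (-3.75) and Bcl2a1b (-2.46), which are near-identical copies. In the stricter cell filter 1 of 5 was higher and 1 lower (-0.49). Of the S100 genes outside the gate, S100a6 (4819 against 11824 CPM, -1.30) and S100a10 (-1.64) were lower and 0 of 6 higher.

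Metabolic genes differed less. Of 12 glycolytic genes 4 were higher and 0 lower (median 0.55, but 0.01 and 0 higher with the gating genes kept in the totals). The 4 were Hk1, Hk3, Gpi1 and Pkm, with log2 ratios of 1.64, 1.02, 1.19 and 1.04. Nuclear genes of the respiratory chain had 2 of 72 higher and 0 lower (median 0.16). Cytosolic ribosomal protein genes had 0 of 80 higher and 1 lower, with a median of -0.40 that became 0.10 against the 133 mature neutrophils with S100a8 and S100a9 at 10% or more.

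Genes of G2 and mitosis were higher in members in 12 of 13 cases and lower in 0, with a median log2 ratio of 1.94. Ube2c, a ubiquitin-conjugating enzyme of the anaphase-promoting complex, had 207 UMIs in 52 members (359 CPM) and 0 in the mature group, at least 25.6-fold higher on a floor of 3 counts over the group. The topoisomerase gene Top2a stood at 319 CPM against 32.7 (3.29, 2.21 to 4.62), the mitotic kinase Cdk1 at 135 against 32.7 (2.05, 0.94 to 3.41) and the proliferation marker Mki67 at 120 against 56.1 (1.09, 0.20 to 2.11). Cks2 (0.25) was the exception. DNA replication genes had 2 of 8 compared (of 13 listed) higher and 0 lower (median 0.33, and -0.44 with the gating genes kept). With those genes kept, 3 of 8 G2 and mitosis genes compared were higher and 0 lower.

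The genes with the largest ratios over mature neutrophils were Orm1, Trp53inp2, Zmpste24, Ube2c, Inhba, Cdk2 and Smg9, each with 2 or fewer UMIs in the mature group. Orm1, which encodes the acute-phase plasma protein orosomucoid and has similar neighbouring copies, had 154 UMIs in 82 members and 1 UMI in mature neutrophils (log2 ratio 5.84, 3.34 to 11.2). Inhba, a subunit of activin A, had 68 UMIs in 53 members and 1 UMI (4.66, 2.13 to 9.98). Lta4h, the enzyme that makes leukotriene B4, had the largest ratio among the genes with more than 3 mature UMIs: 371 UMIs in 173 members and 9 in 5 mature neutrophils, a log2 ratio of 3.94 (2.99 to 5.08). Its product's receptor gene Ltb4r1 was higher as well, as given above. Cpne3, a calcium-dependent membrane-binding protein, had 314 UMIs in 180 members and 10 UMIs (3.54, 2.64 to 4.62). Olfml2b, Arhgap19, Plscr1, Lpgat1 and Mppe1 had log2 ratios of 3.30 to 3.72.

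Several genes at the low end belonged to single cells of the mature group. All 79 Jchain UMIs, 21 of 30 of the cytotoxic granzyme gene Gzma and 57 of 80 of the chemokine gene Ccl5 came from 1 cell each, and the 33 of Cd209d from 3 cells. Others were spread over many cells. The sialyltransferase gene St3gal6 had 1 UMI in members and 23 UMIs in 21 mature neutrophils (-5.95, -11.3 to -3.33), and the fungal receptor gene Clec4n 3 and 41 UMIs, the latter in 21 cells (-5.20, -7.54 to -3.56). H2-Q10, one of many similar MHC genes, had 5 UMIs and 39 UMIs in 31 cells (-4.39). Cxcl10 had 4 and 27 UMIs, the latter in 5 cells (-4.19). In the stricter cell filter, Clec4n had a log2 ratio of -0.44.

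All other kept cells were a mixture of macrophages, dendritic cells, monocytes, lymphocytes and the mature neutrophils. Against them, the members were higher in most genes of the granule and surface receptor lists. Of 3446 genes compared, 996 were higher (28.9%) and 634 lower (18.4%), with a median log2 ratio of 0.19, and with the gating genes kept in the totals (every ratio lower by 0.87) 349 were higher and 1399 lower. All 10 specific granule genes were higher (median 6.18), as were 8 of 9 primary granule genes (4.35, with Ctsc lower). So were 6 of 6 gelatinase granule genes (3.41) and 15 of 19 surface receptors with 0 lower (2.63). UMIs of Mpo, Elane, Prtn3, Ctsg and Ms4a3 lay mostly in few cells, with 1631 of 1676 in 20 of the 328 members. Against mature neutrophils, the gelatinase and receptor medians were 0.30 and -0.60. Lcn2 stood at 26707 against 136 CPM, a log2 ratio of 7.62 (7.53 to 7.71), and Wfdc21, a small secreted WAP-domain protein, at 11749 against 110 (6.74, 6.63 to 6.84). Cebpe stood at 762 against 4.06 CPM (7.55, 7.02 to 8.14) and Ly6g at 1440 against 8.13 (7.47, 7.09 to 7.87).

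The largest ratio over all other cells was that of Orm1, with 154 UMIs against 2 (9.95, 8.07 to 13). Olfml2b, Inhba, the beta-2-like integrin gene Itgb2l, Fcnb, which encodes the lectin ficolin B, and the keratin gene Krt83 followed with log2 ratios of 8.83, 7.77, 7.57, 7.09 and 6.77. Interferon response genes were higher than in other cells in 10 of 13 cases (median 1.65). Cytosolic ribosomal protein genes were lower in 63 of 80 cases and higher in 0 (median -1.35). Inflammatory genes had 9 of 16 lower and 4 higher (median -1.12), and regulators of cell death 5 of 7 lower and 0 higher (-1.48). Transcription factors had 6 of 17 higher and 5 lower.

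Shares of cells with a UMI were compared after each cell was thinned to 1000 UMIs, which left 292 members, 101 mature neutrophils, 224 C1q-expressing cells and 168 T lineage cells. The last groups serve as a comparison for free RNA, and their unthinned medians were 2294 and 1539 UMIs. Unthinned shares are of all cells of a group, and so include the 36 members and 72 mature neutrophils that thinning left out. For some genes the C1q share lay above the T lineage share, such as Il1b (31.7 and 4.17%) and Fcgr1 (9.38 and 1.19%). For such genes C1q cells cannot be taken as background. Lcn2 was detected in 98.3% of thinned members, 78.2% of mature neutrophils, 0.446% of C1q cells and 1.19% of T lineage cells. Chil3 was detected in 81.8% of members (90.5% unthinned), 9.90% of mature neutrophils (11.6%), 4.91% of C1q cells (6.16%) and 0.595% of T lineage cells (2.83%). The interval of the mature share (4.85 to 17.5%) overlapped that of C1q cells (2.48 to 8.62%) and lay above that of T lineage cells (0.0151 to 3.27%). Cebpe was detected in 31.5% of members (55.2% unthinned), 3.96% of mature neutrophils (5.78%) and 0 of 224 C1q cells, which allows a share of up to 1.34% on a floor of 3 counts (exact upper limit 1.63%). Ly6g was detected in 52.7% of thinned members and 17.8% of mature neutrophils, and Cd177 in 62.3 and 22.8%.

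In the other direction, Il1b was detected in 6.16% of thinned members (9.15% unthinned), 46.5% of mature neutrophils (68.8%), 31.7% of C1q cells (40.6%) and 4.17% of T lineage cells (5.67%). The share in members was thus near that of T lineage cells. Retnlg was detected in 44.5% of thinned members (59.8% unthinned) and 84.2% of mature neutrophils (69.4%), Mmp8 in 43.5% (54.0%) and 65.3% (49.7%), and Csf3r in 14.4% (29.3%) and 40.6% (59.5%). In C1q cells these 3 genes were detected in 0.446%, 0.446% and 4.91% of thinned cells. For Mmp8 the order of the groups therefore differs between thinned and unthinned shares, but these are not shares of the same cells. Thinning left out 72 of 173 mature neutrophils and 36 of 328 members. Mmp8 was found in 66 of the 101 thinned mature neutrophils and in 86 of all 173 unthinned. In members it was found in 127 of 292 and 177 of 328. The part of depth in the changed order was not tested.

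The transcript of the sorted marker was nearly absent from the members. Fcgr1 had 4 UMIs in 4 of 328 members (6.94 CPM, 1.89 to 17.8) and 2 UMIs in mature neutrophils (9.36 CPM), against 36.3 CPM in the cells outside both groups. After thinning it was found in 0.342% of members (1.22% unthinned) and 0 of 101 mature neutrophils (up to 2.97% on that floor, exact upper limit 3.59%). It was found in 9.38% of C1q cells (22.8%) and 1.19% of T lineage cells (2.02%). The members' share thus did not exceed that of T lineage cells. The other IgG receptor genes were measured in more members: Fcgr3 stood at 212 CPM with UMIs in 99 of 328, and Fcgr4 at 109 CPM with UMIs in 53. The CD64 protein used for the sort was not measured.

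Members were not alike. Along the Camp, Ngp and Ltf share, 43 cells had 1 to 3% (median 1628 UMIs), 227 had 3 to 10% (2136 UMIs) and 58 had 10% or more (4273 UMIs). These ranges are cut from a score and are not cell types, and their depths differ. Lcn2 stood at 12285 CPM in the lowest range (11494 to 13116), 24913 in the middle (24413 to 25422) and 40518 in the highest (39411 to 41648), against 4004 in mature neutrophils. Chil3 stood at 1945, 7165 and 11504 CPM, Wfdc21 at 6382, 10612 and 18301, and Cebpe at 233, 775 and 1029. Orm1 was almost limited to the upper ranges, with 1 UMI in the lowest and 175 and 694 CPM in the others, and Fcnb stood at 123, 516 and 917 CPM. For Lcn2, Chil3 and Wfdc21 the intervals of neighbouring ranges did not overlap.

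Late genes ran the other way. Retnlg stood at 14874 CPM in the 1 to 3% range (14002 to 15786), close to the 15356 of mature neutrophils (14835 to 15890), at 4286 in the middle and at 495 in the highest range (379 to 634). Mmp8 stood at 2739, 1794 and 311 CPM and Mmp9 at 3862, 2868 and 981, and both were higher in the lowest range than in mature neutrophils (1749 and 2100). The level of Mmp8 that members and mature neutrophils shared as wholes thus averaged unlike cells. Cxcr2 stood at 534, 212 and 95.7 CPM against 472 in mature neutrophils, and S100a6 at 9724, 4707 and 2298 against 11824. Il1b stood at 356, 193 and 39.9 CPM, all below the 4481 of mature neutrophils. The dendritic cell list moved with these genes, at 6081, 2204 and 343 CPM against 4303 in mature neutrophils, as did its gene Cd74, at 4355, 1603 and 303 against 3223. Their part in the lower levels at a higher granule share was not tested. In thinned cells Mmp8 was detected in 75.8, 47.3 and 12.1% of the 3 ranges and in 65.3% of mature neutrophils, and Chil3 in 42.4, 84.6 and 94.8% against 9.90%.

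The surface markers Cd177 and Ly6g had their highest CPM in the middle range, unlike Cxcr2 above. Cd177 stood at 1356, 2381 and 1604 CPM (351 in mature neutrophils) and Ly6g at 904, 1609 and 1245 (239). The intervals of the middle range (2228 to 2542 for Cd177, 1483 to 1742 for Ly6g) did not overlap those of the other ranges. Shares of unthinned cells with a UMI were not highest there. They were 74.4, 91.2 and 96.55% for Cd177 and 76.7, 73.1 and 74.1% for Ly6g. Cybb reached 2746 CPM in the middle and 2872 in the highest range, from 1246 in the lowest, and Lta4h 693 and 798 from 123. The summed specific granule list stood at 26091, 45823 and 63645 CPM, and the summed gelatinase list at 20421, 9086 and 2553.

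**Figure D4:**
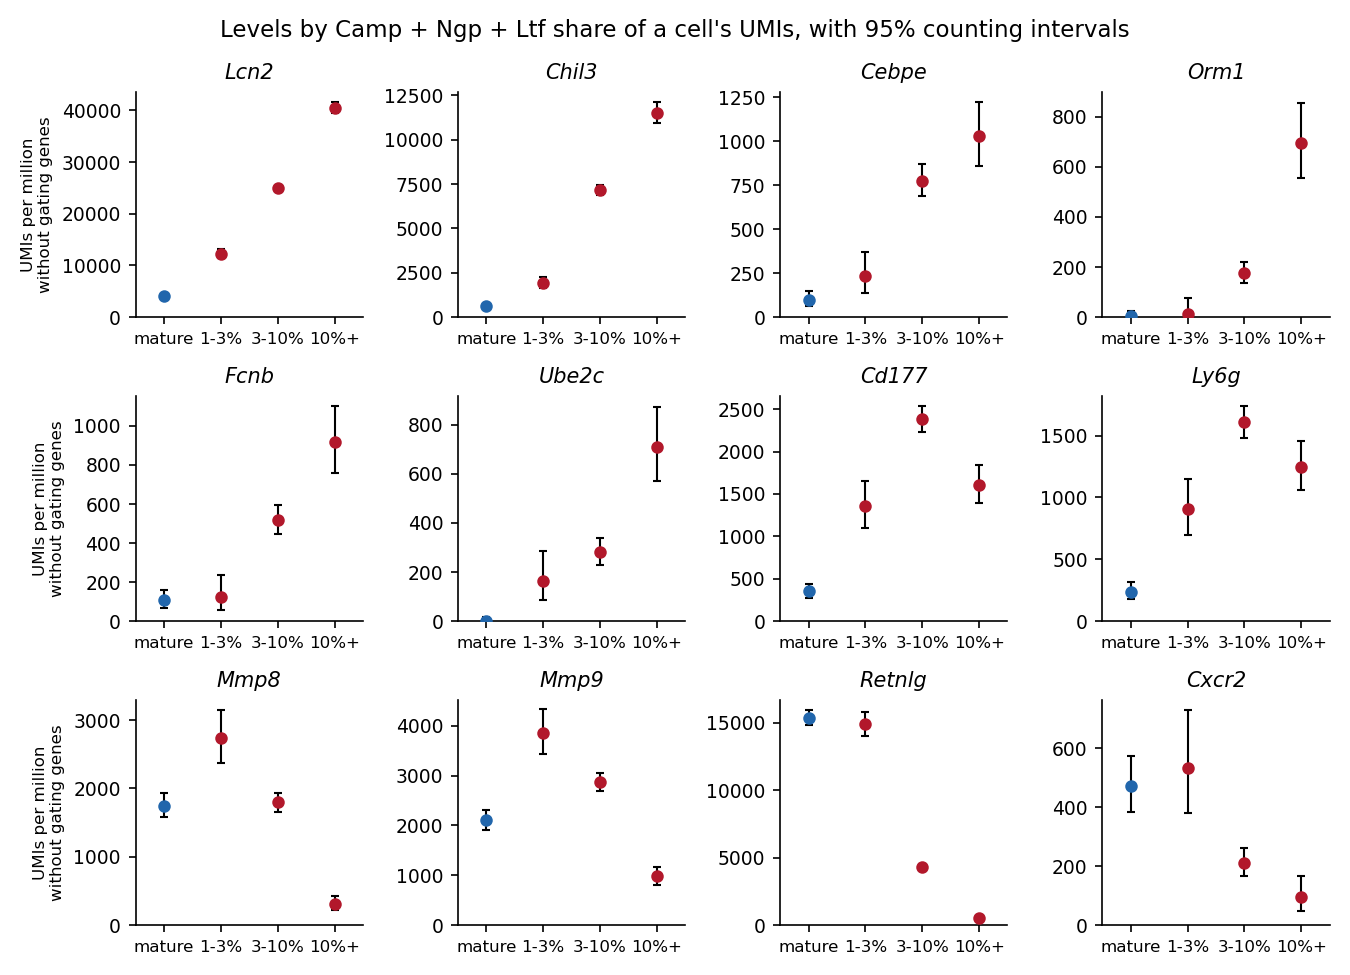
Summed CPM without gating genes (linear axes from 0) of 12 genes in mature neutrophils (blue) and in granule-gene cells with 1 to 3%, 3 to 10% and 10% or more of their UMIs from Camp, Ngp and Ltf (red); bars are 95% counting intervals. Lcn2 goes from 12285 to 40518 across the ranges and Retnlg from 14874 to 495, while Cd177 and Ly6g are highest in the middle range.

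Across the 328 members, the Spearman correlation of the granule share with a gene's share of UMIs was 0.63 for Chil3, 0.56 for Lcn2 and 0.53 for Wfdc21. It was 0.00 for Cd177 and 0.06 for Ly6g, and -0.46 for Mmp8, -0.43 for Retnlg and -0.42 for Mmp9. Among the genes of the rule, the shares of Camp and Ngp had a correlation of 0.74, while Ltf had -0.08 with each of them. The cells were chosen on the sum of these 3 shares, so the correlations among them are shaped by that choice and support nothing. All of these describe cells of 1 library that share its depth and composition, and the shares within a cell are not independent of each other.

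Cells with division genes were concentrated at the high end. At least 3 UMIs of the 14 G2 and mitosis genes were found in 73 of 328 members (22.3%, 17.9 to 27.2%), in 14 of 173 mature neutrophils (8.09%, 4.50 to 13.2%) and in 348 of 2687 cells outside both groups (12.95%). By range these were 4 of 43 members (9.30%), 40 of 227 (17.6%) and 29 of 58 (50%, 36.6 to 63.4%). They were also deeper, with a median of 6113 UMIs against 2032 in the other 255 members, and the part of depth in reaching 3 UMIs was not tested beyond the thinned cells that follow. At an equal depth of 1000 UMIs, at least 1 UMI of the list was found in 18.2, 21.4 and 51.7% of the 3 ranges (20.8% of mature neutrophils, 22.9% of cells outside both groups), and in 27.1% of all members (36.3% unthinned). The T lineage cells had 66.7%. At equal depth the intervals of all members (22.0 to 32.5%) and of mature neutrophils (13.4 to 30.0%) overlapped, and that of the highest range (38.2 to 65.1%) lay above both.

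The 73 dividing members had little of the late genes. Mmp8 stood at 89.3 CPM in them and 2713 in the other 255, Mmp9 at 406 and 4210, and Retnlg at 471 and 8038. Ly6g stood at 519.5 and 2128 CPM and Cd177 at 1140 and 2786. Fcnb was the reverse, at 893 and 300.1 CPM. Among the genes of the rule, Ltf stood at 4342 CPM of all UMIs in dividing members and 10019 in the others, and Camp at 45436 and 31560, as a description of genes that chose the cells.

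Transcripts of the early granule proteins were concentrated in few members. Of 1676 UMIs of Mpo, Elane, Prtn3, Ctsg and Ms4a3, 1631 (97.3%) were in 20 members (6.10%, 3.76 to 9.26%) that had 5 or more each, and 281 members had 0. The 20 cells held up to 262 such UMIs and had a median depth of 8490 UMIs, and 15 of them were among the 73 dividing members. Their Camp, Ngp and Ltf share ran from 2.41 to 12.4%. Since the rule requires Camp, Ngp and Ltf of every member, their presence beside early granule genes follows from the choice of cells. Outside both neutrophil groups, 16 cells had 5 or more early granule UMIs, with a median Camp, Ngp and Ltf share of 0. Doublets of an early and a later cell cannot be told apart from single cells here.

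In these 20 cells Mmp8 had 1 UMI (10.2 CPM) and Mmp9 2 UMIs (20.3 CPM), against 1917 and 3111 CPM in the other 308 members. Fcnb stood at 1687 against 320 CPM. Ltf stood at 1393 CPM of all UMIs (1225 to 1579) against 8793 (8598 to 8990), while Camp stood at 39870 against 37104. Ly6g (132 against 1709 CPM), Cd177 (437 against 2421), Cybb (793 against 2952) and Lcn2 (14280 against 29266) were at lower levels in the 20, and Cebpe was at 813 against 751, with overlapping intervals (645 to 1012 and 675.5 to 833). Thus the Cebpe interval overlapped between cells with and without early granule transcripts, and those of Lcn2, Cd177 and Ly6g did not. Camp and Ltf are genes of the rule, and their levels here are a description.

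**Figure D5:**
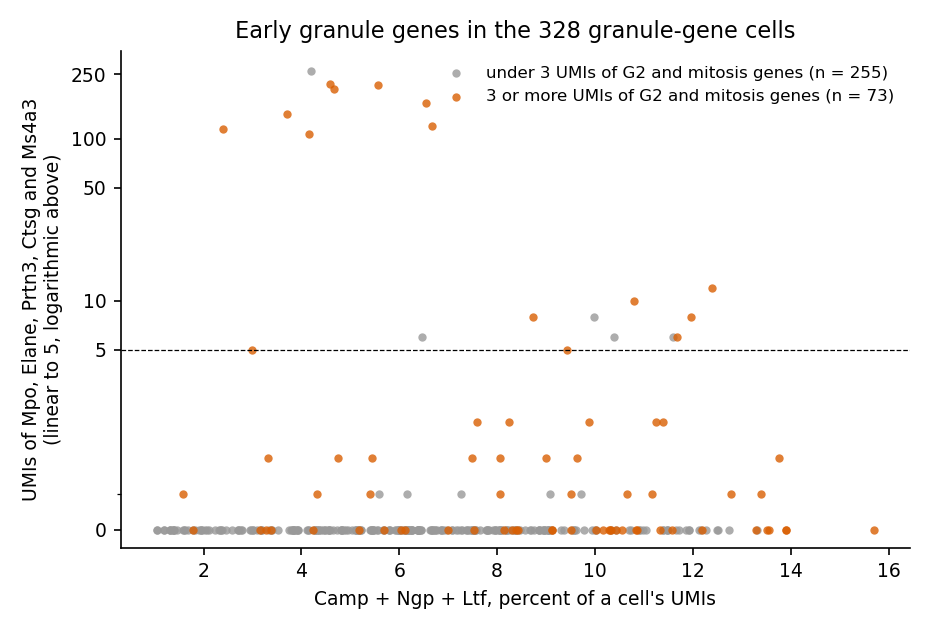
Each point is 1 of the 328 granule-gene cells, with its Camp, Ngp and Ltf share of UMIs on the x axis and its UMIs of 5 early granule genes on the y axis (linear up to 5, logarithmic above; dashed line at 5). Orange cells have 3 or more UMIs of G2 and mitosis genes (73) and grey cells fewer (255); 20 cells lie at or above the line, 15 of them orange.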

How the data were processed

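Single-cell RNA-seq (10x Genomics 3′ chemistry) was made from CD64-sorted thymus cells. The values are UMI counts by gene and barcode, as deposited, without normalization by the authors. Per the file headers they were made with Cell Ranger 6.0.0 (2021) and 8.0.0 (2024), and the submitters' processing notes name the build mm10. Only the 3′ end of transcripts is read, and whether intronic reads were counted is not given in the sources used here. The filter on the 2021 library required 500 or more UMIs, 300 or more genes and no more than 10% mitochondrial UMIs, which 3188 of 3214 barcodes passed. Doublets were not removed in the values given. C1q-expressing cells had at least 0.3% of UMIs from C1qa, C1qb and C1qc, and T lineage cells at least 3 UMIs of Cd3d, Cd3e and Cd3g. Counts were summed over the cells of each group without the 5 gating genes. A side with 0 UMIs was set to 3 counts. Intervals are exact Poisson (levels), Clopper-Pearson (shares) and conditional binomial (ratios) at 95%.

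The named genes were the 15 highest and 15 lowest log2 ratios against mature neutrophils and the 10 highest against all other cells, with at least 100 CPM in the higher side, without ribosomal, mitochondrial, immunoglobulin and T cell receptor segment genes and unnamed models, plus genes of the lists described. The members and lists were chosen with earlier results of these data known. The year of a library is a batch of 1 library each, so the years were not compared. Promoter windows and gene positions are from RefSeq on GRCm38.p6. The calculation was tested on simulated sums with counting error only and with known changes well past the call limit. Calls near that limit, and genes held by few cells, were not tested by it. Python 3.11.15, numpy 2.4.6, scipy 1.17.1, pandas 2.3.3, scanpy 1.11.5 (Scrublet) and matplotlib 3.10.9 were used.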

Additional observations from a re-analysis of the deposited data

How the results depend on the processing

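The share of members in kept cells, 10.3%, ran from 9.54 to 11.1% over 6 other settings (a stricter cell filter, no filter, member limits of 0.5 and 2%, the highest doublet scores removed, cells with early granule genes left out). The counts of genes moved by over 1.5 times under 3 settings. With at least 100 CPM, 254 genes were higher and 220 lower than in mature neutrophils, and 584 higher and 365 lower than in all other cells. With the counting interval required to lie past the fold, 129 were higher and 145 lower than in mature neutrophils, and 380 lower than in all other cells. With the gating genes kept in the totals, 137 were higher than in mature neutrophils, and 349 higher and 1399 lower than in all other cells. Of 58 values of these counts and the share, 48 stayed within limits, and the share stayed within its exact binomial interval in every setting. A count or a share has no sign, so a change of direction could not be tested for these values. Among 500 values of the 40 named ratios, 424 stayed within the main counting interval, 73 left it and 3 changed sign. Of 169 medians of 13 lists against mature neutrophils, 25 moved by 0.5 or more. The changes of sign were those of Jchain with a member limit of 0.5% (log2 ratio 2.89), and Gzma with the highest doublet scores removed (0.11) or with neutrophils carrying genes of other lineages left out (0.0060). Both rest on 1 to 3 cells. In the stricter filter (1000 UMIs, 500 genes, 5% mitochondrial) 54 mature neutrophils were left, and 204 of the 363 genes lower in members (56.2%) were lower again, against 438 of the 550 higher ones (79.6%). In the main setting the mature group was the shallower one, with a median of 1190 UMIs per cell against 2430.5 in members. The parts of depth and of the changed make-up of the mature group were not tested. The last 3 settings tried were chosen after seeing the data: mature neutrophils at 10% or more, and the leaving out of early granule cells and of neutrophils with genes of other lineages. No paired analysis was possible because the members come from 1 library and the labels give no replicate numbers.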
